A study of Mus musculus with 16 samples.

Results

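The genes described here are 9 mouse genes of antigen presentation and the interferon response: Tap1 and Tap2, B2m, H2-K1, H2-D1, Psmb8, Psmb9, Irf1 and Ifitm3. They were taken by symbol, not by their values, from Affymetrix arrays hybridised with RNA of adult mouse neural stem cells. Of 22626 probe sets without controls, 24 were annotated with exactly 1 of the 9 symbols, and the brightest of these, by mean signal over all arrays, stood for its gene. 7 of the 9 genes were bright enough to be tested, among 7619 of the 12393 genes with such a probe set, while Psmb8 and Psmb9 lay near background. Signals are linear MAS5 signals in the arrays' arbitrary units, and every log2 change is a difference in log2(signal + 16).

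The study set out 16 arrays in 8 groups of 2. Tlx(f/Z;CreER) cells, called CreER here, carry a tamoxifen-activated Cre recombinase and were given 4OH-TM (4-hydroxytamoxifen, 4OHT) or vehicle for 36 h or 60 h. Tlx(f/Z) cells, called no Cre here, share the Tlx(f/Z) genotype, lack the CreER transgene and were given the same treatments for the same times. Tlx (gene symbol Nr2e1) is a nuclear receptor known for keeping adult neural stem cells proliferating, and it was not analysed here. The promoter of CreER, the age of the mice beyond adult, and whether the 2 arrays of a group came from separate cultures or animals are not given in the sources used here. The spread between arrays that every p-value rests on may thus be technical only. In the main fit that spread is a trend over all tested genes, not the gene's own.

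MHC class I molecules show peptides from inside the cell to T cells. The proteasome cuts the peptides, with Psmb8 and Psmb9 as catalytic subunits that replace their constitutive counterparts in the immunoproteasome, and the Tap1 and Tap2 proteins form the transporter that carries peptides into the endoplasmic reticulum, where they bind a heavy chain such as H2-K1 or H2-D1 paired with beta-2 microglobulin, the product of B2m. Interferons raise most of these genes through transcription factors such as IRF1, and Ifitm3 encodes an interferon-induced membrane protein that hinders the entry of viruses. Neural stem cells are known for a low class I level that interferon can raise.

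Stretches near the start sites of 6 of the genes are printed from RefSeq (GRCm38.p6). Those of H2-K1, H2-D1, B2m, Irf1 and Ifitm3 show short motifs known from interferon-responsive and class I promoters. That of Tap1 shows only a GC box. Windows from 250 bases before to 50 bases after a start were held for 8 of the 9 genes. The motifs were chosen after the sequences were seen and were searched on both strands: an IRF core (AANNGAAA), a gamma-activated site or GAS (TTCNNNGAA), a kappaB site (GGGNNTTCC) and a GC box (GGGCGG). Tap1 and Psmb9 start 225 bases apart on opposite strands of chromosome 17, and the first line is the whole stretch between them, chr17:34187331-34187555 on the plus strand, read towards Tap1, with the GC box in capitals.
Tap1: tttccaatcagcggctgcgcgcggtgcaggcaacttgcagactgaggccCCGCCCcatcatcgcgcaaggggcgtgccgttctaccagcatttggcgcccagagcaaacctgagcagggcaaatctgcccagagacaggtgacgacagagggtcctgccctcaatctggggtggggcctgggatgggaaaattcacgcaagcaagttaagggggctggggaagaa
The next lines compare the 2 heavy chains at chr17:34000419-34000468 (minus strand, H2-K1) and chr17:35262913-35262962 (plus strand, H2-D1), with the kappaB site and the IRF core in capitals.
H2-K1: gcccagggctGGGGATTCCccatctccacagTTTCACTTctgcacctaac
H2-D1: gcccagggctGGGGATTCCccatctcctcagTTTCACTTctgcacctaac
B2m, at chr2:122147540-122147589 on the plus strand, has an IRF core in capitals.
B2m: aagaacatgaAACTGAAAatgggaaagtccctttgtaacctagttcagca
Irf1, at chr11:53769914-53769963 on the plus strand, has a GAS in capitals.
Irf1: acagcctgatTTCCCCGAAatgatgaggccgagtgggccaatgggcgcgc
Ifitm3 is shown from its first base to base 30, at chr7:141010715-141010744 on the minus strand, with an IRF core and a GAS that overlaps another IRF core in capitals.
Ifitm3: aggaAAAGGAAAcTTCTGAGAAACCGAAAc

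The H2-K1 and H2-D1 stretches were identical at 49 of 50 bases. An IRF core lay in the windows of 4 of the 8 genes (H2-K1, H2-D1, B2m and Ifitm3), against 23.9% of all 32851 windows of that length. A GAS lay in those of 3 (Irf1, Psmb8 and Ifitm3), against 8.3%, a kappaB site in those of 2 (H2-K1 and H2-D1), against 5.82%, and a GC box in those of 4 (Tap1, Psmb9, Irf1 and Ifitm3), against 35.7%. These counts are not all separate finds. The GC box of Tap1 and that of Psmb9 are the same bases, and the H2-K1 and H2-D1 matches lie in the nearly identical stretches. A match is a run of letters and not a measured binding site. Tap1 and Psmb9, which share 275 bases of their windows, had no IRF core, GAS or kappaB letters there.

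Markers of the labelled cell type were present on the arrays, and some differed between the genotypes, as did many of all tested genes. Of 12 neural stem cell markers with a probe set, 10 passed the filter on dim genes, with Nes at a mean signal of 2344 and Sox2 at 1712, and their sum ran from 16467 to 20590 in CreER arrays with 4OHT, 17760 to 21821 in CreER arrays with vehicle, 18653 to 23387 in no Cre arrays with 4OHT and 20362 to 25792 in no Cre arrays with vehicle. Prom1 and Hes5 lay below the filter. With 4OHT in CreER cells 0 of the 10 rose and 3 fell (Pax6, Slc1a3 and Fabp7), though 2 rose and 3 fell after quantile normalization, and with 4OHT in no Cre cells none passed. Of all tested genes 4.00% rose and 8.39% fell with 4OHT in CreER cells, and 38.7% passed there after quantile normalization. In no Cre cells 0.0656% of all passed. The median change of the 10 markers with 4OHT was -0.16 in CreER and -0.16 in no Cre cells. As deposited, the CreER response minus the no Cre response passed for none of the 10, where 2.36% of all tested genes passed. After quantile normalization this difference was higher for 1 and lower for 1 of the 10, where 19.2% of all passed. Between CreER and no Cre cells 1 marker was higher and 4 were lower under 4OHT, and 1 was higher and 5 were lower under vehicle. Of all 7619 tested genes, 654 were higher and 2284 lower under 4OHT, and 610 higher and 2030 lower under vehicle. In either direction that is 38.6% under 4OHT and 34.7% under vehicle. Nes, an intermediate filament gene of neural stem cells, averaged 1844 ± 432 in CreER and 2779 ± 339 in no Cre cells under 4OHT, and 1709 ± 257 in CreER and 3045 ± 367 in no Cre cells under vehicle (SD, n = 4 each). Sox9, a transcription factor of these cells, averaged 306 ± 33.4 in CreER and 632 ± 97.8 in no Cre cells under 4OHT (SD, n = 4 each). The part of these marker differences in the other results was not tested. Of 14 microglia and leukocyte markers 1 passed (Csf1r, 68.1), and of 10 endothelial and 8 fibroblast markers none did. The median signal of an array ran from 92.2 to 132.6 and was lower in CreER than in no Cre groups on average. The ratio of 5′ to 3′ signal of the actin control, a sign of RNA quality, moved with genotype at 36 h, where it ran from 0.716 to 0.825 in CreER and from 0.548 to 0.666 in no Cre arrays without overlap, while at 60 h it ran from 0.7195 to 0.882 in CreER and from 0.773 to 0.891 in no Cre arrays. With this ratio as a covariate, 1955 of all tested genes passed between the genotypes under 4OHT, against 2938 without it, and 1290 under vehicle, against 2640. The median of all tested genes was -0.15 between CreER and no Cre under 4OHT and -0.13 under vehicle, but 0.00 and 0.02 after quantile normalization. Differences between the genotypes are given and tested against 0, not against those medians.

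The transporter gene Tap1 rose with 4OHT in CreER cells, and its partner Tap2 had higher values that did not pass the test. The Tap1 signal was 89.3 and 105 at 36 h and 103 and 97.1 at 60 h in CreER arrays with 4OHT, against 47.5 and 65.5 at 36 h and 75.6 and 44.1 at 60 h in CreER arrays with vehicle. All 4 arrays with 4OHT lay above all 4 with vehicle. The change over both times was 0.65 ± 0.17 (SE), which is 1.57-fold, with an adjusted p of 0.00386 (limma). Counted from the highest, it ranked 83 among the changes of the 7619 tested genes. The change was the same size at each time, 0.65 with an adjusted p of 0.164 at 36 h and 0.65 with an adjusted p of 0.0901 at 60 h, so neither time passed by itself. In RNA from whole cultures, more cells with the transcript and more transcript per cell cannot be told apart.

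Tap2 had 88.2 and 116 at 36 h and 89.2 and 112 at 60 h in CreER arrays with 4OHT, against 52.6 and 75.6 at 36 h and 83.8 and 84.4 at 60 h in CreER arrays with vehicle. These groups did not overlap either, though the gap at 60 h was narrow. The change over both times was 0.39 ± 0.17 (SE) with an adjusted p of 0.111 (limma) and a 95% interval from 0.06 to 0.72. At 36 h it was 0.57 and at 60 h 0.22, neither past the test.

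**Figure D1:**
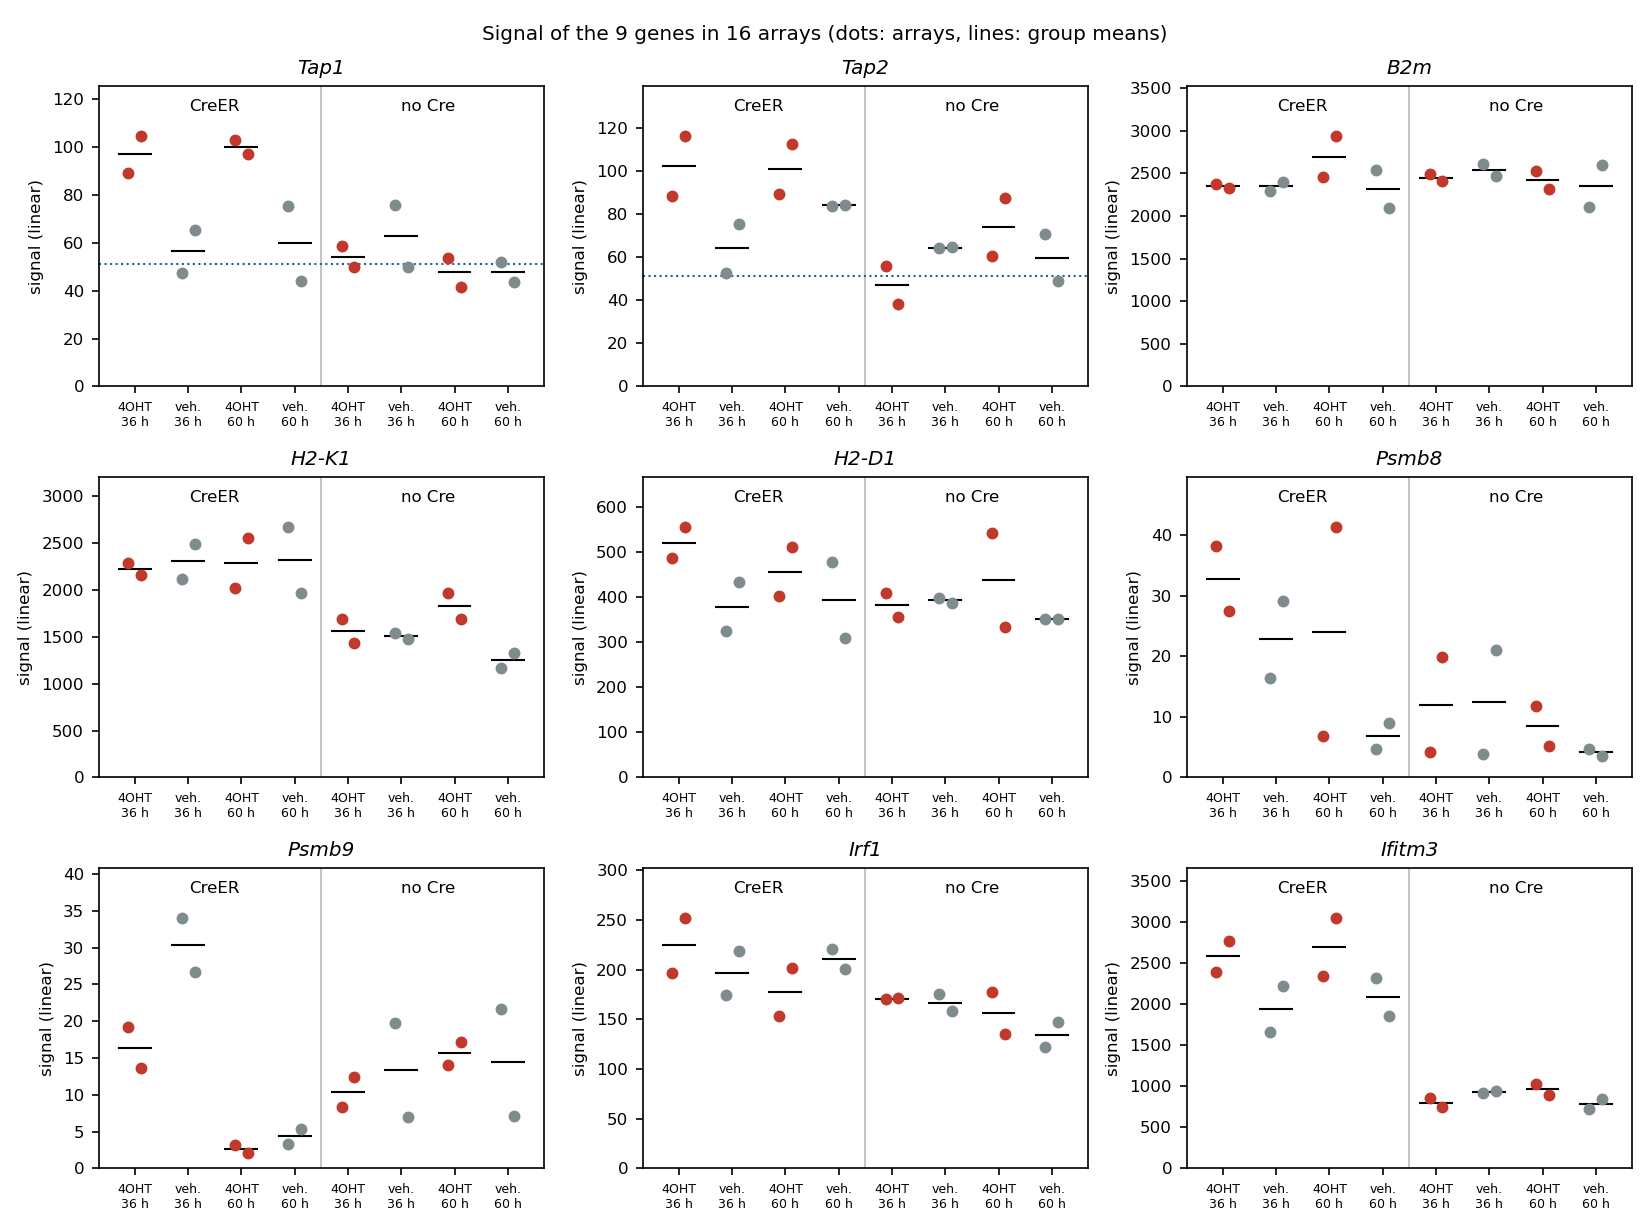
Linear signal of the 9 genes in each of the 16 arrays (dots, red for 4OHT and grey for vehicle) with group means (lines), CreER groups left and no Cre groups right of the grey line; the dotted line marks the filter on dim genes at a signal of 51.1. Tap1 and Ifitm3 lay higher in CreER arrays with 4OHT than with vehicle, Ifitm3 and H2-K1 were higher in all CreER arrays than in any no Cre array, and Psmb8 and Psmb9 stayed below 51.1 throughout.

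Ifitm3 was the other gene of the 9 that rose with 4OHT in CreER cells. Its signal was 2387 and 2771 at 36 h and 2342 and 3046 at 60 h in CreER arrays with 4OHT, against 1655 and 2218 at 36 h and 2316 and 1855 at 60 h in CreER arrays with vehicle. Within each time the arrays with 4OHT lay above those with vehicle, but at 60 h the closest arrays, 2342 and 2316, nearly touched. The means were 2636 ± 334 with 4OHT and 2011 ± 309 with vehicle (SD, n = 4 each), a change of 0.39 ± 0.13 (SE) or 1.31-fold with an adjusted p of 0.0215 (limma). Ifitm2, the next gene of its family on the list of interferon-stimulated genes, had a change of 0.19 with an adjusted p of 0.286 as deposited, but passed after median scaling (0.24, adjusted p = 0.00188) and after quantile normalization (0.21, adjusted p = 3.17e-05, limma).

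Of the 7 tested genes, these 2 rose and none fell with 4OHT in CreER cells, where 12.4% of all tested genes passed, 4.00% rising and 8.39% falling. At 36 h alone none of the 7 passed, where 2.64% of all tested genes did, and 4 of them (Tap1, Tap2, H2-D1 and Ifitm3) had an unadjusted p under 0.05. At 60 h alone none passed, where 7.02% of all did, and Tap1 and Ifitm3 had an unadjusted p under 0.05. The median change of the 7 genes over both times was 0.34, beside -0.07 for all tested genes. In 3 of the 7 (Tap1, Tap2 and Ifitm3) both arrays with 4OHT lay above both with vehicle at each time, as in 4.75% of all tested genes, and in no Cre cells none of the 7 was so ordered, against 0.276% of all.

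Both calls depended on single arrays and on the genes tested. Without the second CreER vehicle array at 60 h, which had the lowest Tap1 signal of the CreER arrays, the adjusted p was 0.0535 for Tap1 and 0.0808 for Ifitm3, and with no filter on dim genes it was 0.0512 and 0.0789 (limma). Ifitm3 also missed the threshold when the first CreER vehicle array at 36 h (adjusted p = 0.188), the second CreER array with 4OHT at 36 h (0.162) or that at 60 h (0.112) was left out, and when the spread was estimated within CreER arrays (0.0626). Quantile normalization moved the other way: Tap1, Tap2, B2m, H2-D1 and Ifitm3 then rose, with adjusted p of 0.00168, 0.0430, 0.0132, 0.00269 and 1.94e-06, where 38.7% of all tested genes passed.

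The class I chains did not pass the test with 4OHT in CreER cells. H2-D1, a heavy chain, had 486 and 555 at 36 h and 401 and 510.4 at 60 h in CreER arrays with 4OHT, against 324 and 433 at 36 h and 478 and 308 at 60 h in CreER arrays with vehicle. The groups were apart at 36 h and overlapped at 60 h. The change over both times was 0.34 ± 0.13 (SE) with an adjusted p of 0.0739 (limma).

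H2-K1, the other heavy chain, averaged 2257 ± 225 with 4OHT and 2315 ± 325 with vehicle (SD, n = 4 each), a change of -0.03 with a 95% interval from -0.27 to 0.21. B2m, the light chain that every class I molecule needs, averaged 2524 ± 280 with 4OHT and 2330.5 ± 189 with vehicle (SD, n = 4 each), a change of 0.11 with an interval from -0.12 to 0.34. The H2-K1 and B2m groups overlapped at both times. For the probe set used of each gene, the interval leaves out a change as large as that of Tap1. Other probe sets of both genes gave higher changes, which are listed further below.

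Irf1, the transcription factor of the group, also showed no call. Its signal was 197 and 252 at 36 h and 153 and 202 at 60 h in CreER arrays with 4OHT, against 175 and 219 at 36 h and 220.5 and 201 at 60 h in CreER arrays with vehicle. The 2 times pointed in opposite directions, 0.18 at 36 h and -0.24 at 60 h, and the difference between them, -0.41 ± 0.29 (SE), did not pass (limma). None of the 7 genes had a response that differed between 60 h and 36 h, where 0.197% of all tested genes did, and none had an unadjusted p under 0.05.

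**Figure D2:**
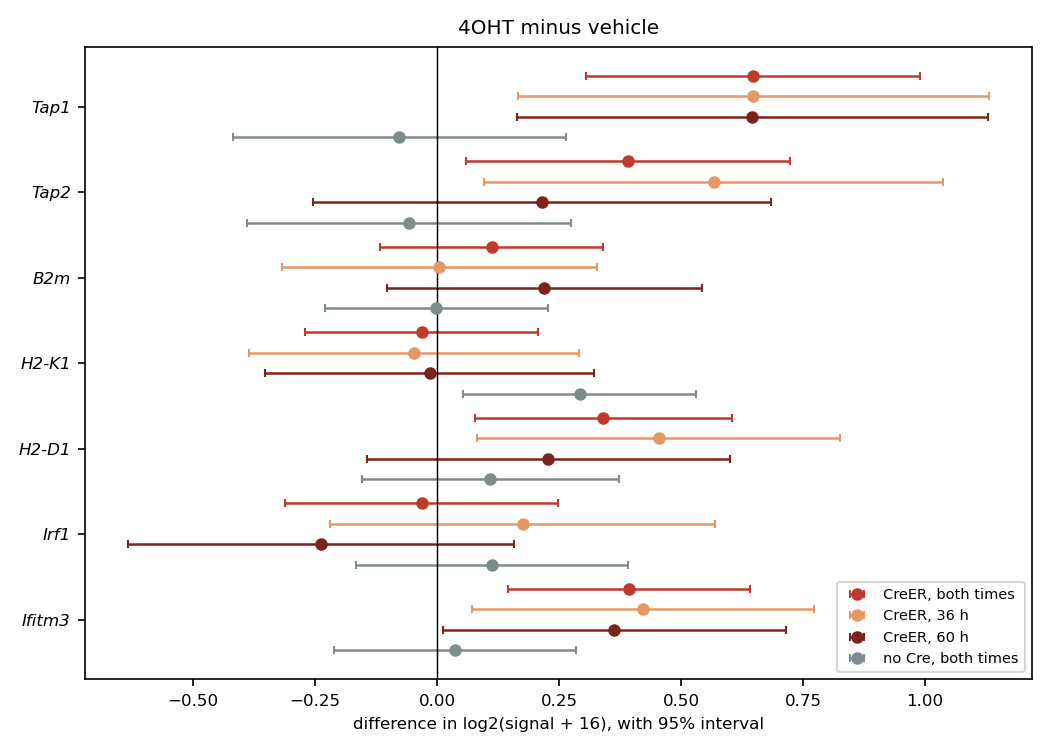
Difference of 4OHT minus vehicle in log2(signal + 16) for the 7 tested genes, with 95% intervals, for CreER cells (both times together, then each time) and for no Cre cells (both times together). Tap1 and Ifitm3 in CreER cells lie right of 0 in every one of the 3 CreER fits, and the no Cre intervals of these genes include 0.

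The immunoproteasome subunits were too dim to follow. Psmb8 had a mean signal of 15.5 over the 16 arrays, with 38.2 and 27.5 at 36 h and 6.83 and 41.4 at 60 h in CreER arrays with 4OHT, and 16.5 and 29.2 at 36 h and 4.63 and 8.996 at 60 h in CreER arrays with vehicle. Psmb9 had a mean signal of 13.4, with 19.1 and 13.6 at 36 h and 3.12 and 2.13 at 60 h in CreER arrays with 4OHT, and 34.02 and 26.7 at 36 h and 3.32 and 5.36 at 60 h in CreER arrays with vehicle. All these values lie below the filter, at a signal of 51.1, where no change was tested. Tap1 and Tap2 themselves stood just above it, at the 42.5th and 44.0th percentile of all probe sets, while B2m, H2-K1 and Ifitm3 stood at the 91.6th or higher.

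4OHT was also given to no Cre cells, which have no recombinase to activate. There Tap1 was 58.6 and 50.02 at 36 h and 53.7 and 41.7 at 60 h with 4OHT, against 75.9 and 49.9 at 36 h and 51.9 and 43.6 at 60 h with vehicle, and the groups overlapped at both times. Ifitm3 was 851 and 747 at 36 h and 1022 and 898 at 60 h with 4OHT, against 916 and 938 at 36 h and 725 and 845 at 60 h with vehicle, lower at 36 h and higher at 60 h. None of the 7 genes passed in no Cre cells, where 0.0656% of all tested genes did, and 1, H2-K1, had an unadjusted p under 0.05.

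H2-K1 was 1688 and 1437 at 36 h and 1967 and 1692 at 60 h in no Cre arrays with 4OHT, against 1546 and 1481 at 36 h and 1170.1 and 1327 at 60 h in no Cre arrays with vehicle. The groups overlapped at 36 h and were apart at 60 h. The change over both times was 0.29 ± 0.12 (SE) with an unadjusted p of 0.0163 and an adjusted p of 0.9999 (limma), and it passed after scaling the arrays to one median (0.38, adjusted p = 0.00586) and after quantile normalization (0.36, adjusted p = 0.000824).

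The response to 4OHT was then compared between the genotypes. The CreER response minus the no Cre response was 0.72 ± 0.25 (SE) for Tap1, with an adjusted p of 0.102 (limma) and a 95% interval from 0.24 to 1.21. It was 0.36 ± 0.18 (SE) for Ifitm3 (adjusted p = 0.433) and -0.32 ± 0.17 (SE) for H2-K1 (adjusted p = 0.488). None of the 7 genes passed, where 2.36% of all tested genes did, and Tap1 and Ifitm3 had an unadjusted p under 0.05. After quantile normalization Tap1, Ifitm3 and H2-K1 passed, with adjusted p of 0.0227, 0.00146 and 0.00168 (limma), where 19.2% of all tested genes passed.

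The largest differences among the 9 genes lay between the genotypes. Ifitm3 was higher in CreER than in no Cre cells under both treatments: every CreER array, from 1655 to 3046, lay above every no Cre array, from 725 to 1022. The difference was 1.57 ± 0.13 (SE) under 4OHT, 2.96-fold with an adjusted p of 2.97e-33, and 1.21 ± 0.13 (SE) under vehicle, 2.31-fold with an adjusted p of 4.66e-20 (limma). H2-K1 also separated the genotypes, with 1974 to 2673 in CreER arrays (median 2226) and 1170.1 to 1967 in no Cre arrays (median 1514). Its difference was 0.41 ± 0.12 (SE) under 4OHT (adjusted p = 0.00314) and 0.74 ± 0.12 (SE) under vehicle (adjusted p = 2.34e-08).

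The transporter genes differed between the genotypes under 4OHT. There Tap1 averaged 98.6 ± 7.02 in CreER and 51.0 ± 7.11 in no Cre arrays (SD, n = 4 each), a difference of 0.78 ± 0.17 (SE) with an adjusted p of 6.12e-05 (limma). Under vehicle it averaged 58.2 ± 14.9 in CreER and 55.3 ± 14.2 in no Cre arrays, a difference of 0.05 with an interval from -0.29 to 0.40. Tap2 was 0.65 ± 0.17 (SE) higher in CreER arrays under 4OHT (adjusted p = 0.000750), and under vehicle the difference of 0.20 did not pass (adjusted p = 0.387). That these genotype differences change with treatment is the comparison of responses above, which did not pass for either gene.

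Irf1 was higher in CreER arrays under vehicle, where it averaged 204 ± 21.3 against 151 ± 22.5 in no Cre arrays (SD, n = 4 each), a difference of 0.40 ± 0.14 (SE) with an adjusted p of 0.0166 (limma). That call was lost with no filter (adjusted p = 0.0573) and without the second CreER vehicle array at 36 h (0.0954), the second no Cre vehicle array at 36 h (0.0783) or the first at 60 h (0.0864). Under 4OHT the Irf1 difference was 0.26 (adjusted p = 0.139). B2m differed by 0.05 under 4OHT and -0.07 under vehicle, and H2-D1 by 0.26 and 0.03, none past the test.

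In all, 4 of the 7 tested genes were higher in CreER cells under 4OHT and 3 under vehicle, and none was lower. Of all tested genes 8.58% were higher under 4OHT and 8.01% under vehicle, while 38.6% under 4OHT and 34.7% under vehicle passed in either direction. The balance over all genes moved with the scaling: quantile normalization called 2108 genes higher and 2159 lower under 4OHT, against 654 and 2284 as deposited, and 2223 higher and 1994 lower under vehicle, against 610 and 2030. All 7 genes were higher in CreER cells under 4OHT after quantile normalization, and the same 3 under vehicle. Microglia and leukocyte markers summed to 260 to 336 in CreER and 348 to 498 in no Cre arrays under 4OHT, and to 244 to 378 in CreER and 308 to 333 in no Cre arrays under vehicle, and their part in these differences was not tested. Genotype here cannot be told apart from whatever else set the 2 sources of cells apart.

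**Figure D3:**
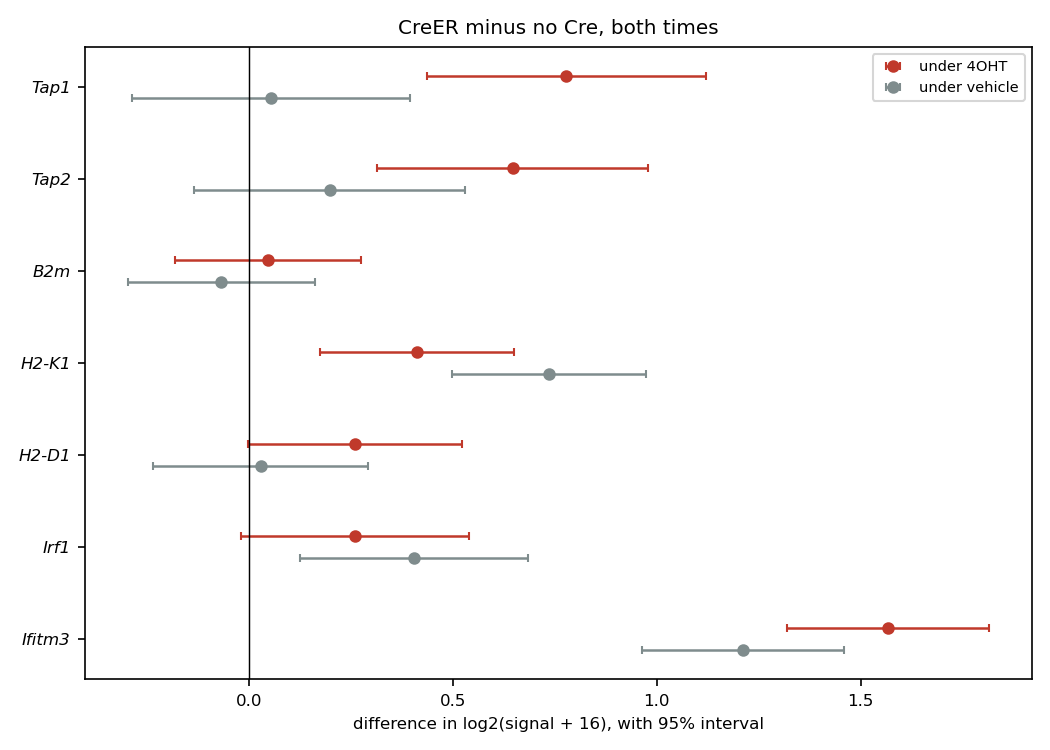
Difference of CreER minus no Cre cells in log2(signal + 16) over both times for the 7 tested genes, with 95% intervals, under 4OHT and under vehicle. Ifitm3 and H2-K1 lie right of 0 under both treatments, Tap1 and Tap2 under 4OHT, and Irf1 under vehicle.

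The order of the 8 group means of Ifitm3 followed the genotype first. The CreER groups with 4OHT came highest, 2694 at 60 h and 2579 at 36 h, followed by the CreER groups with vehicle, 2085 at 60 h and 1936 at 36 h, and then the 4 no Cre groups between 785 and 959.7. Neighbours within the 4OHT pair and within the vehicle pair differed by less than the larger SD of the 2 groups. Tap1 had the 2 CreER groups with 4OHT on top, at 100.2 and 97.0, and the other 6 groups between 47.7 and 62.9, of which most neighbours differed by less than their SD. For B2m the whole range of group means was 2314 to 2695, and no pair of neighbours differed by more than the larger SD.

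Time in culture made no difference that passed for any of the 7 genes. 60 h against 36 h gave between -0.11 (Irf1) and 0.16 (Tap2) in CreER cells, where 5.30% of all tested genes passed, and between -0.22 (Tap1) and 0.20 (Tap2) in no Cre cells, where 4.13% did. No gene of the 7 had an unadjusted p under 0.05 in either.

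The other probe sets of a gene did not always follow the one used. The 3 others of Tap1 lay below the filter, at mean signals of 24.7, 12.02 and 3.88, and gave -0.52, -0.38 and 0.14 with 4OHT in CreER cells, so the rise of Tap1 rests on 1 probe set. The second probe set of B2m, at a mean signal of 1599.8, gave 0.28. For H2-K1 the 3 others, at 344, 207 and 57.1, gave 0.17, 0.47 and 0.02 with 4OHT in CreER cells, and 0.49, 0.11 and 0.53 for CreER against no Cre under vehicle, all in the direction of the 0.74 of the one used. The other H2-D1 probe sets past the filter pointed different ways in CreER cells. One averaged 448 at 36 h and 362 at 60 h with 4OHT, against 300 and 319 with vehicle. A dimmer one averaged 76.9 and 58.1 with 4OHT, against 82.3 and 70.8. Another averaged 81.9 and 61.6 with 4OHT, against 55.3 and 68.8. The used probe sets of H2-K1 and H2-D1 are of the kind that the array maker marks as sharing probe sequences with other genes, so signal of the related class I genes cannot be told apart from theirs.

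**Figure D4:**
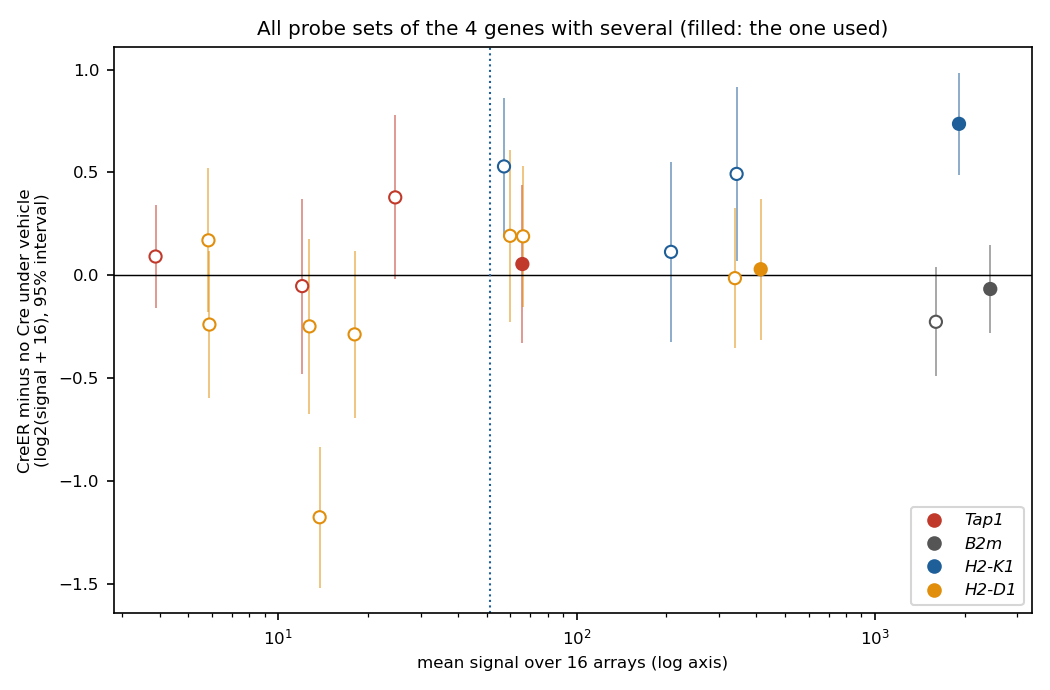
Difference of CreER minus no Cre under vehicle in log2(signal + 16), with 95% intervals, against mean signal on a log axis for every probe set of the 4 genes that have several; filled points are the ones used and the dotted line is the filter at 51.1. Every H2-K1 probe set lies above 0, H2-D1 probe sets past the filter lie near 0, and 1 dim H2-D1 probe set lies at -1.18.

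The rest of the class I pathway was measured by 9 of 16 listed genes, among them Tapbp, which bridges the transporter and the class I molecule, the chaperones Calr and Canx, the trimming enzyme Erap1 and the proteasome activator Psme1. As deposited, none of the 9 passed with 4OHT in CreER cells, against 12.4% of all tested genes, and the median change was -0.01. After quantile normalization, where 38.7% of all tested genes passed, 2 of the 9 were higher (Tapbp and Psme1) and 2 lower (Calr and Pdia3). After median scaling, where 32.9% of all passed, 2 were higher and 1 lower. As deposited, Tapbp had the smallest p, with a change of 0.31 and an adjusted p of 0.145 (limma). Under 4OHT, CreER cells had higher Psme1 (0.43, adjusted p = 0.00354) and Psmb10 (0.40, adjusted p = 0.0118), the third immunoproteasome subunit, and lower Calr (-0.27, adjusted p = 0.0352) than no Cre cells. Of all tested genes 38.6% passed there in either direction. Under vehicle none of the 9 passed, though 4 were higher after quantile normalization, where 55.3% of all tested genes passed in either direction.

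All 14 listed subunits of the constitutive proteasome were measured. As deposited none passed with 4OHT in CreER cells, against 12.4% of all tested genes, with a median change of -0.10. After quantile normalization 4 were lower (Psma1, Psma3, Psma4 and Psma6), where 1459 of the 7619 tested genes were lower. After median scaling 1 was lower (Psma1), where 1457 of the 7619 were. Psmb5, Psmb6 and Psmb7, the catalytic subunits that the immunoproteasome replaces, gave -0.06, -0.08 and -0.06. Psmb3 was lower in CreER than in no Cre cells under 4OHT (-0.41, adjusted p = 0.00307) and under vehicle (-0.29, adjusted p = 0.0433, limma), the second of which was lost after median scaling (adjusted p = 0.0963).

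Of 19 listed receptors and signalling genes of the interferon pathway 14 were measured, with a median change of 0.08 with 4OHT in CreER cells. Ifngr2, a chain of the interferon gamma receptor, rose to 326 ± 83.9 with 4OHT, against 234 ± 22.1 with vehicle (SD, n = 4 each), a change of 0.42 with an adjusted p of 0.0216 (limma). Over both times the arrays overlapped, from 235 to 438 with 4OHT and from 211 to 263 with vehicle. In no Cre cells the Ifngr2 change was 0.15, and the CreER response minus the no Cre response was 0.27 (adjusted p = 0.694, limma). As deposited Ifngr2 was the only one of the 14 to pass with 4OHT in CreER cells, where 12.4% of all tested genes passed. After quantile normalization 4 were higher (Ifngr2, Ifnar1, Ifngr1 and Irf2) and 1 lower (Jak2), where 38.7% of all tested genes passed. After median scaling 1 was higher and Jak2 lower, where 32.9% of all passed. Ifngr1, the other chain, was lower in CreER than in no Cre cells, by -0.72 under 4OHT (adjusted p = 1.04e-06) and by -0.65 under vehicle (adjusted p = 1.34e-05). Under 4OHT the kinase gene Jak2 was also lower (-0.49), and under vehicle Irf2 (-0.58), Stat2 (-0.47) and Jak1 (-0.38), of which Stat2 missed the threshold after quantile normalization (adjusted p = 0.0567). Of all 7619 tested genes, 2284 were lower in CreER cells under 4OHT and 2030 under vehicle.

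Most interferon-stimulated genes were dim in these cells. Of 45 listed genes 38 had a probe set and 9 passed the filter, and the mean signals of Mx1, Ifit1, Ifit3 and Cxcl10, which interferon raises in many cell types, were 10.3, 5.99, 2.28 and 10.6. With 4OHT in CreER cells 1 of the 9 passed as deposited, where 12.4% of all tested genes did: Samhd1, an enzyme that breaks down deoxynucleotides, fell to 207 ± 9.73 with 4OHT, against 301 ± 44.1 with vehicle (SD, n = 4 each), a change of -0.50 with an adjusted p of 0.00389 (limma). In no Cre cells Samhd1 averaged 339 ± 40.6 with 4OHT, against 411 ± 38.4 with vehicle (SD, n = 4 each), a change of -0.27 that did not pass. Its CreER response minus its no Cre response was -0.23 (adjusted p = 0.778, limma). Ifitm2 was also higher with 4OHT in CreER cells after median scaling and after quantile normalization, where 32.9% and 38.7% of all tested genes passed. Between CreER and no Cre cells Ifi35 was higher under 4OHT (0.74, adjusted p = 7.50e-05) and under vehicle (0.52, adjusted p = 0.00885), and Samhd1 was lower under 4OHT (-0.67) and under vehicle (-0.43). Under vehicle Adar, an RNA-editing enzyme, was also higher (0.48), and Eif2ak2, the kinase that double-stranded RNA activates, lower (-0.43). Of all tested genes 38.6% passed between the genotypes under 4OHT and 34.7% under vehicle. Of the class II genes, the path that presents peptides from outside the cell, only H2-DMa passed the filter, and its change with 4OHT in CreER cells was 0.30 (adjusted p = 0.255), though it passed after median scaling (0.34) and after quantile normalization (0.37).

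**Figure D5:**
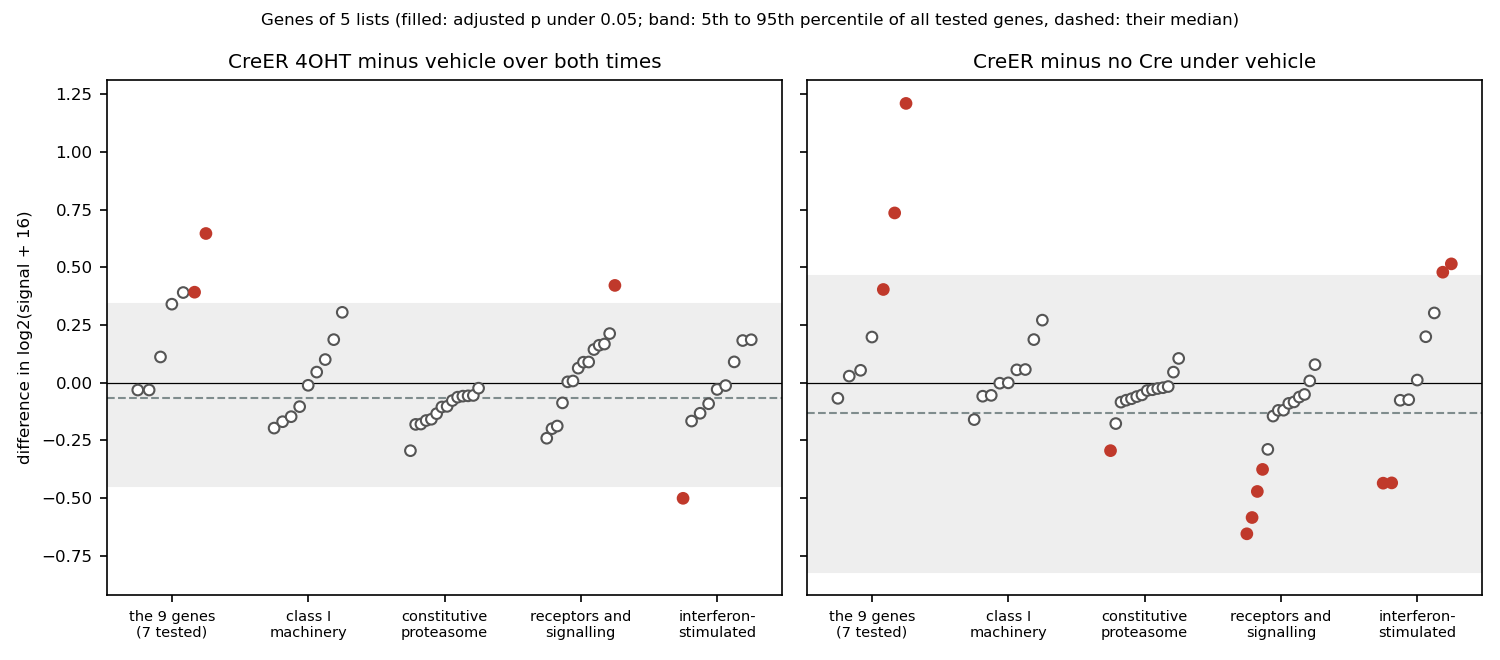
Differences in log2(signal + 16) of each measured gene of the 5 lists, for 4OHT minus vehicle in CreER cells over both times (left) and CreER minus no Cre under vehicle (right); filled points passed the test, the band spans the 5th to 95th percentile of all tested genes and the dashed line is their median. With 4OHT, 2 of the 9 genes, Ifngr2 and Samhd1 are filled, and under vehicle Ifitm3 at 1.21 stands highest of all points.

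The tested genes whose 8 group means of log2(signal + 16) were most like those of each gene were named by Pearson's r, as a description over means that share arrays and their brightness. Ifitm3 was followed most closely by Ifitm10 (r = 0.996), another gene named for the same family, then Aldh1l1 (0.995) and Cdkn2b (0.994). Tap1 was followed by Dpysl5 (0.958), Ddit4 (0.954) and Pdrg1 (0.939), and Tap2 by Dgat1 (0.973), Uckl1 (0.972) and Zfpm1 (0.971). H2-K1 was followed by Plpp2 (0.9745), H2-D1 by Dexi (0.952), B2m by Atp1b1 (0.953) and Irf1 by Mettl22 (0.963). None of the 9 genes was among the 3 nearest of another.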

How the data were processed

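The authors deposited 1 table of MAS5 signal intensities, linear and not logged, for 16 arrays; per the submitters' processing notes MAS5 made them, and its version and scaling target are not given in the sources used here. TRIzol RNA was biotin-labelled with an ENZO BioArray kit, per the labels' protocols. From the 22626 probe sets left without 64 controls, those annotated with 1 symbol (20380) were kept and 691 with several and 1555 with none were left out; the brightest stood for its gene. All 24 probe sets of the 9 genes matched a current symbol. Genes with a mean log2(signal + 16) under the 40th percentile of all probe sets (6.07, a signal of 51.1) were left out, which left 7619.

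limma 3.58.1 in R 4.3.3 was fitted on log2(signal + 16) with 8 group means over all 16 arrays, 8 residual degrees of freedom and a trend in the prior variance (infinite prior degrees of freedom). Each SE and p-value of this fit therefore uses the variance of the trend at the gene's mean level, and not the gene's own variance. Each comparison is a contrast of these means, adjusted by Benjamini-Hochberg over the 7619 genes at 0.05; tests are two-sided. The fit was tested on simulated data. The number of arrays limits the precision.

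Alternatives were median scaling, quantile normalization, a pseudocount of 1, no filter, no trend, the actin ratio as a covariate, the replicate number as a block, the spread of the groups compared alone, leaving out each array, and the other probe sets. Replicate numbers do not pair the arrays: deviations of same-numbered arrays correlated between -0.13 and 0.31 over 28 pairs of groups, with 5 above 0.1. The 9 genes, the lists and the tests were chosen with earlier results of these data known. All 9 genes are named; from each list up to 4 measured genes with the smallest p in a comparison were, and other genes (such as Psmb5, Ifitm2 and Mx1) were picked by their known role after their values were seen.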

Additional observations from a re-analysis of the deposited data

How the results depend on the processing

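The counts of the 7 genes (all 9 with no filter) past the threshold moved mainly with the scaling. With 4OHT in CreER cells over both times, 2 passed as deposited, 5 after median scaling and 5 after quantile normalization, 0 with no filter, 1 with the spread of CreER arrays alone, and 0 to 3 when single arrays were left out. At 36 h, 0 became 3, 2, 1, 2 and 1 under median scaling, quantile normalization, no trend, the actin ratio as a covariate and the spread of those groups alone. Of all tested genes 19.2%, 21.4%, 2.87%, 2.68% and 4.59% passed in these settings, against 2.64% as deposited. At 60 h, 0 became 3, 3 and 1 under median scaling, quantile normalization and no trend, and 0 to 1 without single arrays. In no Cre cells 0 became 1 under both scalings. Of all tested genes 0.263% passed there after median scaling and 0.814% after quantile normalization, against 0.0656% as deposited. At 60 h in CreER cells the shares were 23.5%, 29.7% and 7.8% under median scaling, quantile normalization and no trend, against 7.02%. The difference between the genotypes' responses went to 3 under both scalings and 1 with no trend, and to 0 to 1 without single arrays. CreER against no Cre under 4OHT went to 7 under both scalings, against 4; 60 h against 36 h in CreER cells to 2 under quantile normalization, while with no filter the 1 gene that passed was Psmb9, and in no Cre cells to 1 under both scalings. The cause was not tested. Of all tested genes, the responses differed in 15.6% after median scaling, 19.2% after quantile normalization and 2.51% with no trend, against 2.36%. CreER against no Cre under 4OHT gave 52.7% and 56% under these scalings, against 38.6%. Time gave 22.8% in CreER cells under quantile normalization and 1.65% with no filter, against 5.30%. In no Cre cells time gave 46.2% after median scaling and 27.2% after quantile normalization, against 4.13%. Over all tested genes, 944 passed with 4OHT in CreER cells, against 2510 after median scaling, 2951 after quantile normalization and 548 with no filter. Once the fit held the actin ratio, 1290 passed for CreER against no Cre under vehicle, against 2640, 1955 under 4OHT, against 2938, and 7 for 60 h against 36 h in no Cre cells, against 315.

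Among differences past the threshold in either setting, signs turned only with other probe sets: Tap1 gave -0.52 and -0.38 with 4OHT in CreER cells and -0.12 and -0.26 for CreER against no Cre under 4OHT, and H2-D1 gave -1.18 for CreER against no Cre under vehicle and -1.01, -0.73 and -0.56 under 4OHT. All these probe sets lie below the filter. The replicate number as a block changed none of these counts of the 7 genes, and with it 784 of all tested genes passed with 4OHT in CreER cells, against 944. Ifitm3 and H2-K1 stayed past the threshold between the genotypes under vehicle and under 4OHT in all 17 settings fitted with the same probe set. Arrays of 2 a group, signals near background for Tap1 and Tap2, and an unknown scaling target limit what can be said.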

Other observations

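Probe sets that the annotation gives to several class I genes at once belong to none of the 9 genes and were not tested. One listed with H2-Q5 and H2-K1 had signals from 193 to 460 in CreER arrays (median 309) and from 21.9 to 64.4 in no Cre arrays (median 35.6). One listed with H2-K1 and H2-D1 ran from 206 to 299 in CreER arrays (median 266) and from 106 to 233 in no Cre arrays (median 122). A dim one listed with Gm38417, H2-Q2 and H2-D1 had the lower median in CreER arrays. It ran from 9.02 to 41.6 there (median 16.1) and from 8.61 to 33.8 in no Cre arrays (median 26.5), with overlap. The dim H2-D1 probe set with a difference of -1.18 under vehicle ran from 1.67 to 4.70 in CreER arrays and from 8.31 to 31.0 in no Cre arrays, with no overlap. These were chosen after their values were seen, and which class I gene or allele each of them measured was not tested.

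The Psmb9 values of CreER arrays fell into separate ranges by time, 2.13 to 5.36 at 60 h and 13.6 to 34.02 at 36 h, all below the filter. In no Cre arrays they overlapped, 7.15 to 21.7 at 60 h and 6.92 to 19.7 at 36 h. With no filter, Psmb9 was the 1 gene of the 9 past the threshold for time in CreER cells.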
